A study of Drosophila melanogaster with 4 samples.

Results

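The regions described here are the γH2AvD regions called on the left arm of chromosome 3 (3L) of Drosophila melanogaster, leaving out the last 1 Mb before the centromere. A region was taken when its midpoint lay more than 1 Mb from the centromeric end of the arm in the dm3 assembly, so position alone chose the members. The rule gave 235 of the 1926 regions in 3 deposited lists: 30 of 297 in the WT list, 204 of 1563 in the dH1 RNAi list and 1 of 66 in the direct list. Chromatin immunoprecipitation with sequencing (ChIP-seq) was done in S2 cells, an established embryonic Drosophila line, with a rabbit antibody against γH2AvD. The WT group consisted of 1 ChIP and 1 input library (sonicated chromatin DNA with no antibody) from cells labelled WT. The dH1 RNAi group consisted of the same pair of libraries from cells labelled dH1 depletion, which received 100 µg of double-stranded RNA against dH1 on days 1, 4 and 7 of 8 days. The labels repeat this treatment text on all 4 libraries, and it was taken to apply to the cells labelled dH1 depletion and not to those labelled WT. With no control double-stranded RNA recorded, an effect of the treatment and one of losing dH1 cannot be told apart, and no measured dH1 level was used here. The WT list was called against WT input, the dH1 RNAi list against dH1 RNAi input, and the direct list from the dH1 RNAi ChIP against the WT ChIP. With 1 library per group there is no replicate error and no test between the conditions.

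H2Av is the histone H2A variant of Drosophila, and it does the work of both H2A.X and H2A.Z of mammals. The kinases of the DNA damage response phosphorylate it near DNA breaks, and the phosphorylated form, γH2AvD, marks such chromatin. dH1 is the linker histone of somatic fly cells. It binds where DNA enters and leaves the nucleosome and is known for its role in compacting chromatin and in keeping transposons and other heterochromatic repeats silent. Most of arm 3L is euchromatin, and toward the centromere it passes into repeat-rich pericentric heterochromatin.

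Each region carries a number of ChIP reads and a number of control reads, both whole numbers that were not scaled by depth. The headers do not state if the reads come from a region's full width, so counts were not divided by width, and counts at shared sites of unequal width may cover unequal lengths. The sources used here give no library totals, so depth is unknown, and the ratio of ChIP to input reads is comparable among regions of a list but not in level between lists. The 95% intervals below, given in brackets after a value where no range is named, cover counting error only for ratios of reads, and take regions as independent for shares and numbers of regions. Those of medians come from the order of the regions and describe their spread. None holds error between cultures or libraries, and PCR reads are not independent molecules. On the arm, ChIP reads ranged from 145 to 385 in the WT list and from 74 to 453 in the dH1 RNAi list. No gene is named: the gene column of the lists is empty, and no dm3 annotation or sequence was used here. Coordinates are those of dm3, counted from 1.

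In WT cells the 30 regions of arm 3L were few and mostly solitary. They covered 29.45 kb of the 23.5 Mb considered, or 1.27 regions per Mb, and had a median width of 1000 bp (range 550 to 2150 bp). Their median was 206.5 ChIP reads, 96.5 input reads and a ratio of 2.30 (interval of the median 1.70 to 2.78), beside 2.65 over the whole WT list. Neighbouring WT regions lay a median of 720.6 kb apart. A neighbour closer than 10 kb was present for 4 of the 30 regions (13.3%, 3.76 to 30.7), beside 23.2% in the whole WT list. These 4 regions formed 2 pairs, one spanning 9.40 kb from 1856501 to 1865900 and one spanning 5.05 kb from 23088101 to 23093150.

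Of the 5 highest WT ratios on the arm, 4 lay at the centromeric end of the stretch, in the last part that the position rule still admits. Between 23 Mb and the limit there were 6 regions, the most of any 1 Mb bin although this bin is only 0.544 Mb long. At 23118351 to 23119600 there were 385 ChIP and 97 input reads at a ratio of 3.97 (3.17 to 5.01), the highest on the arm. At 23088101 to 23089250 the reads were 333 and 88, a ratio of 3.78 (2.98 to 4.84). The neighbouring region at 23092101 to 23093150, with 203 and 73 reads, had the lowest ratio of the 6, 2.78 (2.12 to 3.69). The intervals of these 3 ratios overlapped.

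The other 3 regions of that stretch were of similar ratio, and one of them was wide. The region at 23330651 to 23332800, the widest WT region of the arm at 2150 bp, had 361 ChIP and 110 input reads and a ratio of 3.28. At 23143051 to 23144200 the reads were 327 and 96, a ratio of 3.41, and at 23251201 to 23252300 they were 235 and 70, a ratio of 3.36. The median ratio of the 6 regions was 3.38 (range 2.78 to 3.97), against 2.02 (range 1.42 to 3.64) for the 24 WT regions below 23 Mb. Their ChIP reads had medians of 330 and 200, and their input reads, with medians of 92 and 107.5, overlapped in range. Beyond the limit, in the sequence left out, the 3 WT regions of 3L had ratios of 3.96 to 5.38. Just inside the limit the last WT region had a ratio of 3.28, and just outside it the first, at 23707451 to 23708650, had 356 ChIP and 90 input reads and a ratio of 3.96. In ratio the last 6 regions thus lay nearer to those beyond the limit than to the rest of the arm, although the rule counts them as arm sequence. No test was made of this order.

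**Figure D1:**
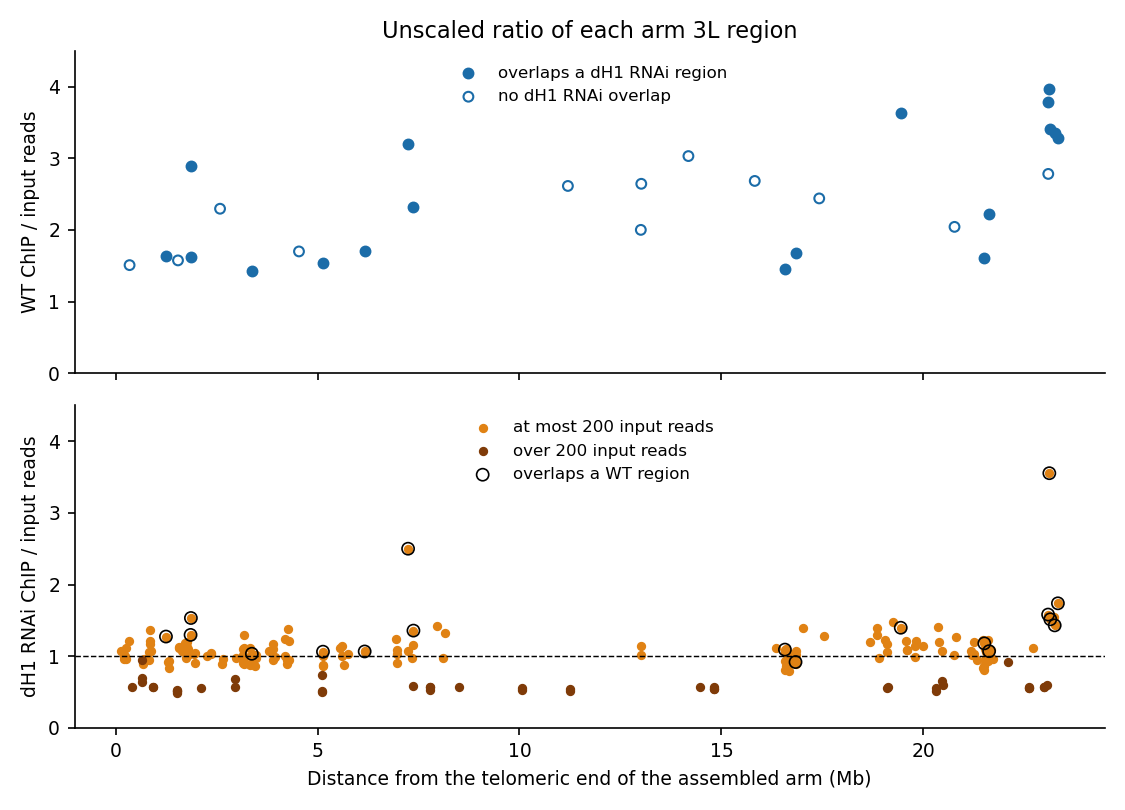
Unscaled ratio of ChIP to input reads of each region on arm 3L against its distance from the telomeric end of the assembled arm, for the 30 WT regions (top) and the 204 dH1 RNAi regions (bottom), where ringed points overlap a WT region and the dashed line marks equal reads. The last 6 WT regions lie at 2.78 to 3.97, the dH1 RNAi regions with over 200 input reads lie at 0.488 to 0.951, and the points are sparse between 8 and 16 Mb.

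Below 23 Mb the WT ratios were split at 2 into a lower and a higher set, with no region between 1.71 and 2. The gap between ratios of 3.19 and 3.64 was wider, so the values do not themselves form these sets. The split was chosen after the values were seen and is a description. The lower set held 11 regions with ratios of 1.42 to 1.71 and 113 to 209 input reads (median 126). The higher set below 23 Mb held 13 regions with ratios of 2 to 3.64 and 56 to 116 input reads (median 72). Their ChIP reads were alike, with medians of 199 and 200. The sets differed in input reads far more than in ChIP reads. Input reads are part of the ratio that split the sets, so this difference is not a separate result.

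In the lower set, the region at 3373901 to 3374800 had 297 ChIP and 209 input reads at a ratio of 1.42 (1.19 to 1.70), the lowest on the arm, and it was the only WT region of the arm with over 200 input reads. At 16572501 to 16573350 there were 212 and 146 reads, a ratio of 1.45, and at 21508851 to 21509800 there were 221 and 138, a ratio of 1.60. The region nearest the telomere, at 346801 to 347350, had 196 and 130 reads and a ratio of 1.51. The other 7 had 183 to 225 ChIP reads over 113 to 137 input reads. Every region of the lower set lay below 7 Mb or between 16 and 22 Mb, where most dH1 RNAi regions lay. A dH1 RNAi region was found within 50 kb of 10 of the 11 regions, with a median of 4 and up to 8 such regions each. Over all WT regions of the arm it was 25 of 30, with a median of 2. These counts include dH1 RNAi regions that overlap the WT region itself, as at 8 of the 11. Over the whole WT list 72.4% of regions had such an overlap.

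In the higher set, the region at 19439301 to 19440700 stood out with 251 ChIP and 69 input reads at a ratio of 3.64 (2.78 to 4.82), the third highest WT ratio of the arm. At 7241951 to 7243000 there were 230 and 72 reads, a ratio of 3.19, and at 14182651 to 14183650 there were 200 and 66, a ratio of 3.03. At 1864751 to 1865900 the reads were 336 and 116, a ratio of 2.90, whereas its partner in the same pair, at 1856501 to 1857400, had 183 and 113 reads and a ratio of 1.62. With nearly equal input, the ChIP reads of this pair of neighbours differed. The region with fewest ChIP reads of the arm, 145 over 71 input reads, also belonged to this set, at 20771201 to 20771750. Of the 13 regions, 9 had a dH1 RNAi region within 50 kb, with a median of 2 and up to 5 each. At 5 of the 13 such a region overlapped the WT region itself, against 8 of 11 in the lower set. From 23 Mb to the limit, at ratios of 2.78 to 3.97, it was 5 of 6, and over the whole WT list 72.4%. Overlap thus did not fall in step with a higher ratio, and the sets were not tested against each other.

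After dH1 RNAi many more regions were called on the arm, and they lay close together. There were 204 regions in the dH1 RNAi list, covering 214.2 kb, or 8.67 per Mb, which is 6.80 times the number in the WT list (4.62 to 10.3). Their median width was 900 bp (range 550 to 5800 bp), against 1000 bp for the WT regions of the arm and 950 bp over the whole dH1 RNAi list. When regions of a list under 10 kb apart were merged, there were 118 and 28, or 4.21 times as many (2.77 to 6.61). Over the whole lists the same ratio was 5.26 (4.65 to 5.98), and the interval of the arm held that value. On the other arms, cut by the same rule, it was 4.97 on 2L, 5.17 on 2R, 6.21 on 3R and 2.76 on X. Among regions with at most 200 input reads it was 5.59 on 3L (3.75 to 8.61) and 1.515 to 5.316 on the other arms. The number of regions called may also depend on depth, which is unknown, and this was not tested. The regions of 3L made up 13.1% of the dH1 RNAi list (11.4 to 14.8) and 10.1% of the WT list (6.92 to 14.1). These intervals overlapped, and the difference was not tested.

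The dH1 RNAi regions lay mostly on either side of a sparse stretch in the middle of the arm, and were unevenly spread there. The first 6 Mb held 95 of the 204 regions, and the stretch from 8 to 16 Mb held 13. The fullest bins were 0 to 1 Mb and 1 to 2 Mb, with 23 regions each, followed by 3 to 4 Mb and 21 to 22 Mb with 20 each. The bin from 16 to 17 Mb held 17, the 2 bins from 17 to 19 Mb held 2 and 4, and the bin from 22 to 23 Mb held 7. The region nearest the telomere, at 146401 to 147150, had 99 ChIP and 92 input reads. No region was called in the bins 9 to 10, 12 to 13 and 15 to 16 Mb, and the longest gap, 1737 kb, ran from 11262900 to 12999901.

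**Figure D2:**
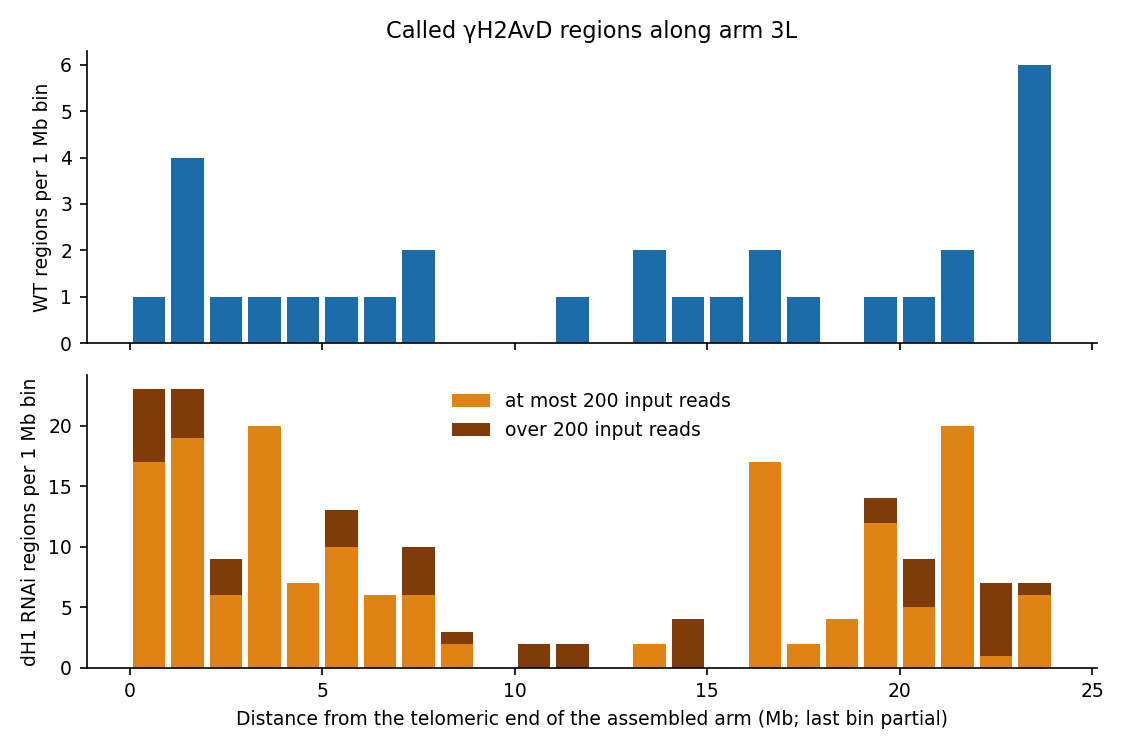
Number of called regions in each 1 Mb bin of arm 3L against distance from the telomeric end, for the WT list (top, 30 regions) and the dH1 RNAi list (bottom, 204 regions, coloured by input reads); the last bin is 0.544 Mb long. The WT bars are highest in the last bin, with 6 regions, and the dH1 RNAi bars in the first pair of bins, with 23 each, while few regions fall between 8 and 16 Mb.

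The sparse middle held mostly regions with many input reads. Of its 13 dH1 RNAi regions, 9 had over 200 input reads, against 42 of 204 on the whole arm. The WT list was also thin there, with 5 regions between 8 and 16 Mb, and none of these 5 overlapped a dH1 RNAi region. Beside the region at 14182651 to 14183650 described above, they were those at 13004351 to 13005350, with 184 ChIP and 92 input reads, and at 13015851 to 13016600, with 148 and 56. The other two, at 11198701 to 11199650 and 15824951 to 15825900, had 162 and 62 reads and 161 and 60 reads. Their ChIP reads of 148 to 200 all lay below the WT median of the arm, 206.5, while 4 of their 5 ratios (range 2 to 3.03) lay above its median of 2.30. The nearest dH1 RNAi region was 2250 bp from the WT region at 13004351 and 519200 bp from the one at 15824951.

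When the stretch was cut into 3 equal parts of 7.85 Mb, the dH1 RNAi regions with at most 200 input reads numbered 90 in the telomeric part, 5 in the middle part and 67 in the centromeric part. The middle part thus held 3.09% of the 162 regions (1.01 to 7.06). In the WT list the same parts held 11, 4 and 14 of 29 regions, and the middle share was 13.8% (3.89 to 31.7). On 2L, 2R and 3R the middle part held 41.7%, 26.5% and 28.2% of such dH1 RNAi regions, and on X 2.0%. A low share in the middle was thus found on 3L and X and not on the other 3 arms. These shares come from 1 library pair, neighbouring regions are not independent, and the differences were not tested.

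**Figure D3:**
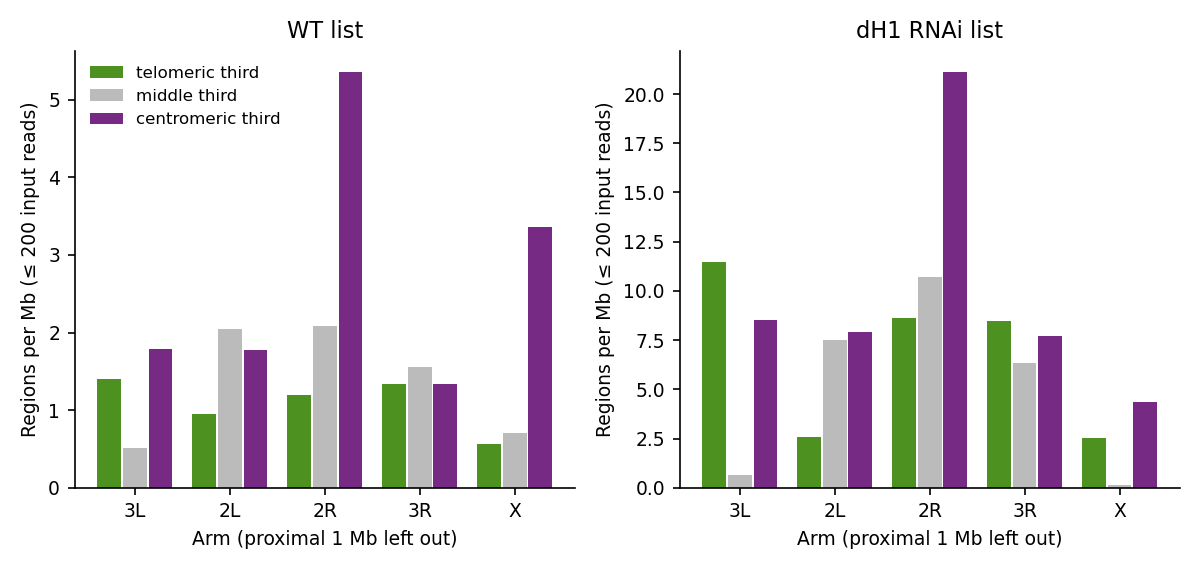
Regions with at most 200 input reads per Mb in the telomeric, middle and centromeric of 3 equal parts of each arm, with the proximal 1 Mb left out, for the WT list (left) and the dH1 RNAi list (right); the vertical scales differ. On 3L the dH1 RNAi bars stand at 11.5, 0.637 and 8.54 per Mb, and X has a similarly low middle bar of 0.140.

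Input reads divided the dH1 RNAi regions of the arm into 2 classes with no region between them. The class with at most 200 input reads held 162 regions, with input reads up to 161, and the class above it held 42, with input reads from 226. Over the whole dH1 RNAi list there was no such gap, with input reads up to 200 below the limit and from 201 above it. The 2 classes are thus a description of the arm. Where such regions hold repeated sequence they may share reads, and this was not tested. The share with over 200 input reads was 20.6% (15.3 to 26.8), beside 37.9% over the whole dH1 RNAi list. In the WT list it was 1 of 30 on the arm, beside 2.36% over the whole list. ChIP reads were outnumbered by input reads at 96 of the 204 regions (47.1%, 40.1 to 54.2), beside 59.6% over the whole list, and at none of the 30 WT regions, beside 0.0% over the whole WT list.

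The high-input regions were nearly uniform in ratio and lay in tight groups. Their median was 235 ChIP and 423.5 input reads, and their ratios had a median of 0.565 with an interquartile range of 0.537 to 0.575. Over the 593 high-input regions of the whole list the median ratio was 0.572, with an interquartile range of 0.537 to 0.6285. Every one of the 42 had fewer ChIP than input reads, as did every such region of the whole list (100.0%). ChIP reads followed input reads closely across the 42 regions of the arm (Spearman 0.922, n = 42, a description over regions of 1 library pair that may share reads). Over such regions of the whole list the value was 0.914. None of the 42 overlapped a WT region (0.0%), and the share was also 0.0% among the high-input regions of 2L, 2R, 3R and X. On 3L the 42 regions made up 21 separate loci with a median span of 4.75 kb, and 30.7% of the length covered by the list on the arm.

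The regions with most input reads on the arm lay in 3 of these loci. From 5107601 to 5114500 there were 3 regions with 264, 400 and 309 ChIP reads over 358, 773 and 625 input reads, and the ratios fell from 0.737 at the first to 0.517 and 0.494. From 20469701 to 20477800, adjoining regions of 4100 and 3850 bp had 368 and 453 ChIP reads over 563 and 753 input reads. From 14818751 to 14825050, in the sparse middle, there were 3 regions with 273 to 340 ChIP reads and ratios of 0.540 to 0.570. In all 3 loci high-input regions lay next to each other.

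A cluster of 4 narrow regions from 1508651 to 1513450 had 221 to 277 ChIP reads over 433 to 568 input reads, and it included the lowest ratio of the arm, 0.488 (0.421 to 0.564) at 1508651 to 1509450. Another low ratio, 0.507, was found at 20324451 to 20325050, with 237 and 467 reads. A single wide region at 404351 to 409550 was 5200 bp long and had 322 and 561 reads, a ratio of 0.574. The widest region of the list, 5800 bp at 651001 to 656800, had 215 ChIP and 226 input reads and a ratio of 0.951 (0.786 to 1.15), the highest of the 42 high-input regions. Its neighbours in the same cluster, at 659401 to 660350 and 660801 to 661700, had ratios of 0.635 and 0.698. Across the arm 13 of the 204 regions were wider than 2 kb (6.37%, beside 6.4% over the whole list), and 10 of these 13 had over 200 input reads, beside 62.0% of such wide regions over the whole list.

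**Figure D4:**
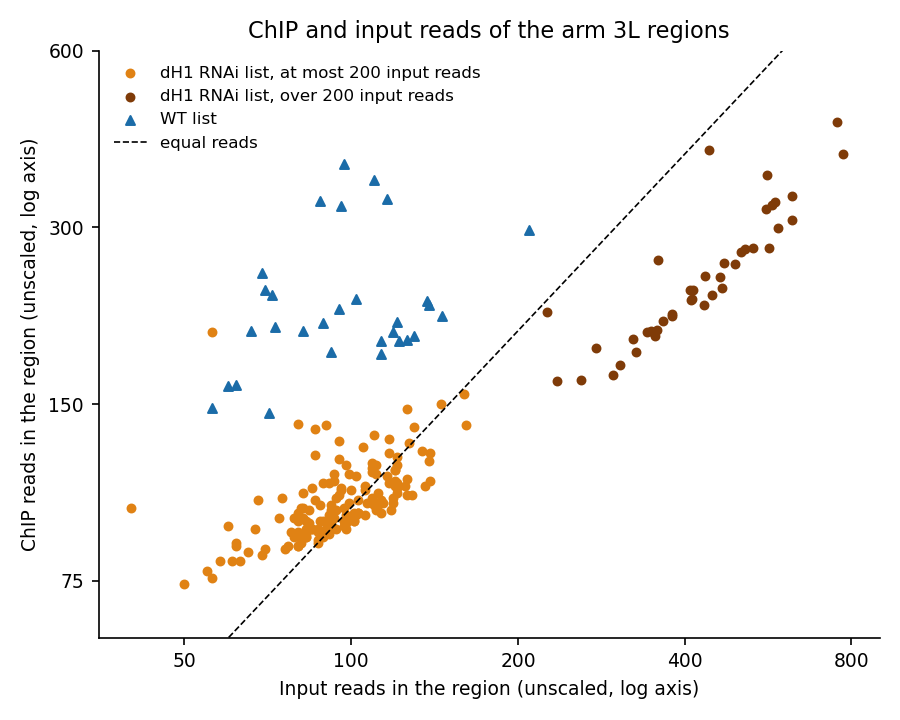
ChIP reads against input reads, unscaled and on log axes, for the 30 WT regions and the 204 dH1 RNAi regions of arm 3L, with a dashed line at equal reads. The dH1 RNAi regions form a group up to 161 input reads around the line and a separate band from 226 input reads below it, while the WT regions lie above the line; the level of the 2 lists is not comparable because depth is unknown.

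The 162 regions with at most 200 input reads had fewer ChIP reads and higher ratios than the high-input regions. Their median was 99.5 ChIP and 94 input reads, with a median ratio of 1.06 (1.03 to 1.08) and an interquartile range of 0.960 to 1.17. Input reads outnumbered ChIP reads at 54 of them (33.3%, 26.1 to 41.2), beside 34.8% of such regions over the whole list. Only 9 of the 204 dH1 RNAi regions, or 4.41%, had a ratio at or above 1.42, the lowest WT value on the arm, beside 9.66% over the whole list. Since depth is unknown, this count does not rank the conditions.

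The highest dH1 RNAi ratio of the arm was at the site with the highest WT ratio. At 23118101 to 23119600 there were 199 ChIP and 56 input reads at a ratio of 3.55 (2.63 to 4.87). At 7241951 to 7242950 there were 100 and 40 reads, a ratio of 2.5 (1.72 to 3.70). The next, at 23330651 to 23331800 and 23088101 to 23089200, had ratios of 1.74 and 1.58. All 4 sites were WT regions as well, and the first was the only dH1 RNAi region of the arm that the caller gave a false discovery rate of 0.001, against 0.026 for the other 203. The highest ratio at a site with no WT region was 1.55 (1.11 to 2.18), at 23241301 to 23242150, with 93 and 60 reads and under 10 kb from the shared region at 23251251 to 23252250. From 23 Mb to the limit the 6 regions with at most 200 input reads had ratios of 1.43 to 3.55 (median 1.57), against a median of 1.05 (range 0.799 to 2.5) for the 156 such regions below 23 Mb. The centromeric end thus held the higher median ratio in the WT list and among these dH1 RNAi regions. A high-input region in the same stretch, at 23066901 to 23068050, had a ratio of 0.601. Just inside the limit the last dH1 RNAi ratio was 1.74, and just outside it, at 23707501 to 23708600, it was 1.75. Beyond the limit the 11 dH1 RNAi regions had a median ratio of 0.675. The 4 of them with at most 200 input reads had ratios of 1.01 to 3.23.

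Clustering was a further feature of the dH1 RNAi list on this arm. A neighbour under 10 kb away was present for 139 of the 204 regions (68.1%, 61.3 to 74.5), beside 53.1% over the whole dH1 RNAi list. The share was 63.1% on 2L, 67.0% on 2R, 52.5% on 3R and 63.7% on X, so that 3L had the highest share of the 5 arms, and only the 3R value lay below 61.3%, the lower bound on 3L. The difference was not tested. The median gap was 17.2 kb, and 33 of 203 gaps were under 1 kb. There were 53 clusters, of which 38 held low-input regions only, 13 high-input regions only and 2 both. By class, 36 of 42 high-input regions (85.7%) and 103 of 162 low-input regions (63.6%) had such a neighbour, beside 47.6% and 56.5% over the whole list. In neither class was the share on 3L the highest of the 5 arms. It was 87.2% for high-input regions on 2L and 66.9% for low-input regions on 2R.

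The cluster with most regions lay between 16572101 and 16596100, where 6 regions in 24 kb had 92 to 137 ChIP reads over 84 to 136 input reads and ratios of 0.801 to 1.1. Its first region overlapped the WT region at 16572501 to 16573350, and the other 5 overlapped none. A further 3 clusters held 5 regions each. From 834051 to 852350 the ChIP reads were 91 to 130 and the ratios 0.951 to 1.37, from 3162201 to 3178200 they were 92 to 116 and 0.909 to 1.29, and from 5129451 to 5145450 they were 91 to 118 and 0.867 to 1.06. Of these, the last also held a shared WT region, at 5134951 to 5135550. A cluster of 4 regions from 21609651 to 21628150, with 92 to 107 ChIP reads, held the shared WT region at 21627151 to 21628250. In each of these 5 clusters the ChIP reads of the members differed by less than 1.5 times. The low-input regions of the arm were narrow in range as a whole, with an interquartile range of 92 to 110 ChIP reads. A shared region was found in 9 of the 53 clusters, a count that was not compared with solitary regions or with the whole list.

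Of the 30 WT regions of the arm, 18 overlapped a dH1 RNAi region (60%, 40.6 to 77.3), beside 72.4% over the whole WT list, a value within the interval of the arm. Of the 204 dH1 RNAi regions, 18 overlapped a WT region (8.82%, 5.31 to 13.6), beside 13.7% over the whole dH1 RNAi list, just above that interval. Shared WT regions had more ChIP reads and more input reads than unshared ones, and the median ratios were closer. The 18 shared regions had a median of 228.5 ChIP reads (range 183 to 385), 111.5 input reads and a ratio of 2.27. The 12 unshared ones had a median of 192 ChIP reads (range 145 to 218), 77.5 input reads and a ratio of 2.37. The ChIP ranges of the 2 sets overlapped between 183 and 218 reads.

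The unshared WT region with most ChIP reads, at 2586551 to 2587700, had 218 ChIP and 95 input reads, and the nearest dH1 RNAi region was 43150 bp away. At 23092101 to 23093150 (203 and 73 reads) the nearest lay 2900 bp away, at the stronger member of that WT pair. At 17421501 to 17422550 there were 200 and 82 reads and a ratio of 2.44, with the nearest dH1 RNAi region 128650 bp away. Among the 12 unshared WT regions 3 lay under 10 kb from a dH1 RNAi region (25%, 5.49 to 57.2), beside 20.7% over the whole WT list. Absence from the dH1 RNAi list does not show that the mark was absent there.

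Conversely, 17 of the 186 dH1 RNAi regions with no WT overlap lay under 10 kb from a WT region (9.14%, 5.42 to 14.2), beside 9.34% over the whole list. Of these 17, 16 were low-input regions, out of 144 such unshared regions (11.1%, 6.49 to 17.4), beside 15.2% over the whole list. The first share was close to that of the whole list, and the second interval held the whole-list value.

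ChIP reads were fewer in the dH1 RNAi region than in the WT region at each of the 18 shared sites, as at 100.0% of shared sites over the whole series. As dH1 RNAi over WT, the ChIP read ratio ranged from 0.315 to 0.611, with a median of 0.470 (0.408 to 0.523), beside 0.434 over all 215 shared sites. Input reads were also fewer at 17 of the 18 (94.4%), beside 86.5% over all shared sites, and their ratio had a median of 0.737 (range 0.556 to 1.23). The quotient of the ChIP and input ratios had a median of 0.605 (0.481 to 0.752), beside 0.562 over all shared sites, and was under 1 at 18 of 18, beside 99.1%. A uniform factor between libraries is part of each of these values, since depth is unknown.

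The quotient varied among the sites, and it was highest at the strongest site, 23118351 to 23119600, where 385 WT ChIP reads became 199, and 97 WT input reads became 56, giving 0.895. The next highest quotients were 0.801 at 1856501 to 1857400, with 183 and 96 ChIP reads and 113 and 74 input reads, and 0.783 at 7241951 to 7243000, with 230 and 100 ChIP reads and 72 and 40 input reads. These 3 sites differed widely in WT ratio. At 19439301 to 19440700 it was lowest, 0.384, with 251 and 81 ChIP reads and 69 and 58 input reads. At 23088101 to 23089250 it was 0.418, with 333 and 136 ChIP reads and 88 and 86 input reads. At 23251201 to 23252300, the only shared site with more input reads after dH1 RNAi (86 against 70), it was 0.426, with 235 and 123 ChIP reads. Of the 5 shared sites from 23 Mb to the limit, 4 had quotients of 0.418 to 0.529 and the strongest site had 0.895. Their median was 0.445, against 0.694 for the 13 sites below 23 Mb, where quotients ranged from 0.384 to 0.801. Over the 18 sites the quotient had a Spearman correlation of -0.472 with the WT ratio, which is a description only, since the WT counts enter both measures.

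**Figure D5:**
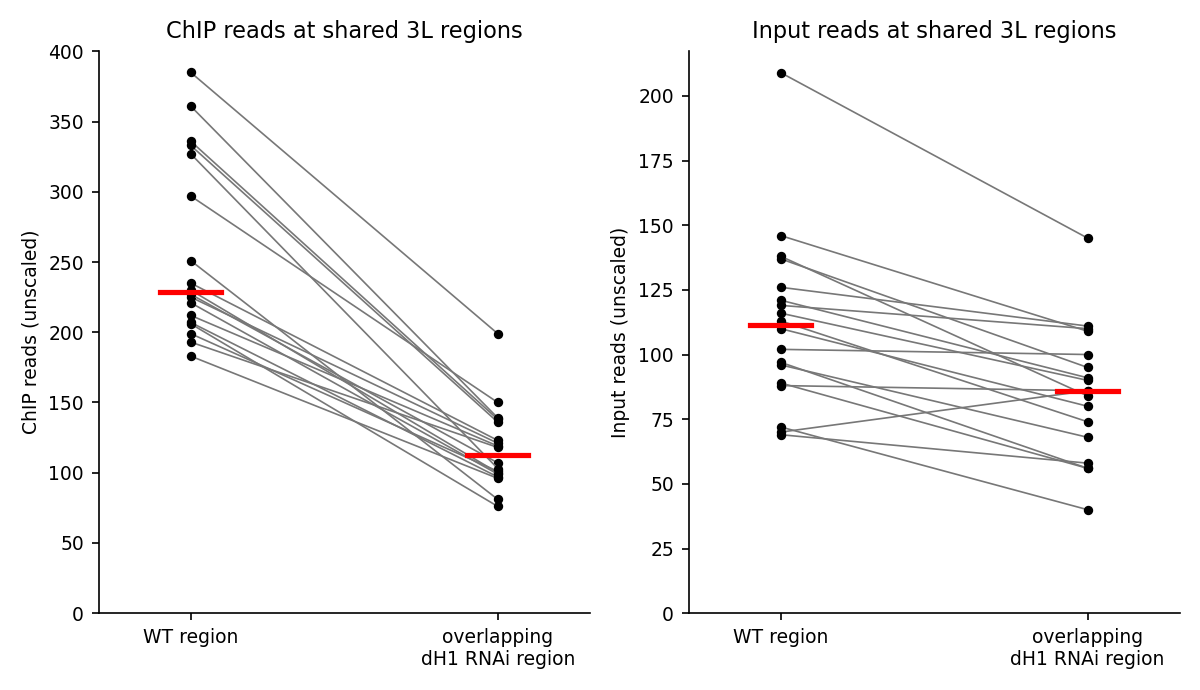
ChIP reads (left) and input reads (right), unscaled, at the 18 shared sites of arm 3L, with a line joining each WT region to the dH1 RNAi region that overlaps it and red bars at the medians. All 18 lines fall for ChIP reads, from a median of 228.5 to 112.5, and 17 of 18 fall for input reads, from 111.5 to 86.

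The shared regions were chosen by their overlap, which by itself keeps them close in place. Their summits, the positions of highest signal given by the caller, were identical at 6 of the 18 sites. They lay a median of 150 bp apart (up to 750 bp), beside 50 bp over all 215 shared sites. The dH1 RNAi region covered the whole WT region at 7 sites and at least 53.5% of it at all 18. Median widths were 1025 bp in the WT list and 1075 bp in the dH1 RNAi list. The order of the sites by ratio was similar in the 2 lists (Spearman 0.800 over the 18 sites, which share no library between the lists). Both lists come from the same caller, which limits what this likeness shows.

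A single region of the arm was called when the dH1 RNAi ChIP was set directly against the WT ChIP. At 22093201 to 22094200 there were 413 dH1 RNAi and 542 WT ChIP reads, a ratio of 0.762 (0.669 to 0.868), with a false discovery rate of 0.071 from the caller. The ratio was 44th of the 66 directly called regions, whose median was 0.812. It overlapped the dH1 RNAi region at 22092801 to 22095300, as did 97.0% of directly called regions, and the summits were 50 bp apart. That region had 406 ChIP and 443 input reads at a ratio of 0.916 (0.799 to 1.05), the second highest among the 42 high-input regions. Although it is 2500 bp wide and contains the directly called 1000 bp, its ChIP count is lower, and the lists were made with different read extensions. No WT region overlapped the directly called one, as at 0.0% of the direct list, and the nearest lay 464.9 kb away. Just outside the positional limit, the directly called region at 24434451 to 24436050 had 463 and 605 reads, a ratio of 0.765.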

How the data were processed

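γH2AvD ChIP and input libraries of WT and dH1 RNAi S2 cells, 1 of each, were compared through 3 region lists. Per the labels' protocols, each library took 10 ng of DNA and 15 cycles of PCR. Bowtie 0.12.5, FastQC 0.10.1 and dm3 are named in the submitters' processing notes. The CCAT method of PeakRanger 1.16 made the lists from duplicate-marked alignments, per the file headers (window 500 bp, step 50 bp, at least 4 reads, window fold of 3), with reads extended to 200 bp, or 50 bp in the direct list. Reads per region were deposited as raw counts. The caller's deposited false discovery rate, a p-value type column, was used to keep regions within its cut-off of 0.1, which removed 3 directly called regions, 0 of them on 3L.

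Ratios, overlaps of at least 1 bp, clusters (gaps under 10 kb) and intervals were computed with Python 3.11.15, numpy 2.4.6, pandas 2.3.3 and scipy 1.17.1. Shares have Clopper-Pearson intervals, count ratios exact Poisson intervals, and medians order-statistic intervals. A WT region was paired with the dH1 RNAi region of largest overlap. Named regions were the extremes of ratio, width, control reads, cluster size and position in each list, and the unshared regions with most ChIP reads; regions of the 8 to 16 Mb stretch and of the ratio sets were chosen after their values were seen. The code was tested on simulated data. Members, the limit of 200 input reads and other choices were made with earlier results of these data known. The sources used here do not say how marked duplicates and reads aligning to several places were handled.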

Additional observations from a re-analysis of the deposited data

How the results depend on the processing

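No paired analysis was possible because there was only 1 ChIP and input pair per condition; for the same reason no library could be left out. Of 58 alternative values on arm 3L, 47 stayed within the interval of the reported value (for the number of regions, within 1.5 times), 11 moved and 0 reversed. The dH1 RNAi list was 4.21 times as long as the WT list when regions under 10 kb apart were merged, against 6.80. With ChIP reads of at least the list median, the median ratio was 3.41 for WT regions and 0.571 for dH1 RNAi regions. The dH1 RNAi median was 1.06 at up to 200 control reads, 1.04 and 1.05 at 4/3 and 5/3 of the lowest ratio, and 3.55 at a false discovery rate of at most 0.01. The last setting left 1 dH1 RNAi region, with 0.0% overlapping and 0.0% in clusters, and no WT region, so 4 values could not be given. Clustered dH1 RNAi regions made up 29.4% with gaps under 1 kb and 87.7% with gaps under 50 kb. These moves follow from the regions each setting removes or joins. The overlap of WT regions ranged from 52.6% to 71.4%, and the median quotient from 0.505 to 0.694. Unknown depth limits every comparison of levels between the lists.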
